A study of Mus musculus with 6 samples.

Results

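The 10 imprinted growth regulator genes, H19, Igf2, Igf2r, Dlk1, Meg3, Grb10, Peg3, Ndn, Mest and Plagl1, were read out by RNA sequencing in LSK cells, marrow cells without lineage markers but with Sca-1 and c-Kit, among them the haematopoietic stem cells. The 10 genes were chosen by symbol, as an imprinted network tied to stem cell quiescence and to the axis of Hmga2, Plag1 and Igf2, and all 10 had a row among the 48395 symbols of the tables, of which 26164 had a count above 0. Each gene had at least 1 read in the series, and 5 of the 10, namely Grb10, Igf2r, Ndn, Mest and Dlk1, passed the count filter of the test. There were 2 groups of 3 libraries: 3 were labelled Hmga2 and 3 were labelled vector. Donor marrow in both groups carried Mx1Cre; Jak2V617F/+, an activating allele of the cytokine receptor kinase Jak2 with an inducible Cre driven by the Mx1 promoter, and came from mice primed with 5-fluorouracil. It had been infected with a lentivirus carrying Hmga2 in one group and with the vector alone in the other, transplanted into lethally irradiated C57BL/6 recipients, and collected 32 weeks later. The labels describe a sort by lineage, Sca-1 and c-Kit and name no selection for infected cells. They call the libraries of a group biological replicates, and do not say whether each came from a separate recipient.

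An imprinted gene is expressed mainly from the copy inherited from one parent. Many paternally expressed genes, such as Igf2, favour growth, while many maternally expressed ones, such as Igf2r, Grb10 and H19, restrain it. Several of the 10 genes belong to a co-regulated network that is active in the fetus and falls after birth, and in mouse marrow a number of them stay expressed in the most quiescent stem cells. Hmga2, which encodes an architectural chromatin protein, is known in growth studies to act upstream of Plag1, a zinc-finger factor that activates Igf2. The tables count both parental copies together, so allele-specific expression was not measured here.

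Total counts ran from 24818011 to 35471806 per library, so that 3 reads, taken as the floor for counting error only, corresponded to 0.0846 to 0.121 CPM (reads scaled to library size, here with TMM factors). The gene named by the label did not rise with it: Hmga2 stood at 2.64, 6.62 and 5.92 CPM in the Hmga2-labelled libraries, against 5.97, 5.02 and 7.04 CPM in the vector libraries (log2 fold change -0.25, SE 0.35, adjusted p = 0.934, edgeR), and the sign of the difference turned in 2 of 14 alternative settings. All directions below are therefore those of the labels. It is not stated whether transcripts of the lentiviral insert count towards the Hmga2 row. All 9 LSK markers used were detected. Their sum was 1520 to 1580 CPM in the Hmga2-labelled libraries, against 1200 to 1360 CPM in the vector libraries, so the sums did not overlap. Most of the sum was Cd34 and Kit, with means over the 6 libraries of 682 and 332 CPM, and both overlapped between the groups. Of the single markers only Meis1 had groups that did not overlap, beside 11.2% of all genes tested. A higher mean in the Hmga2-labelled libraries was found for 7 of the 9. Of the 10 B and plasma cell markers 3 had a higher mean in the Hmga2-labelled libraries, and their summed level was 503 to 4450 CPM there, against 645 to 13600 CPM in the vector libraries. Of the 9 granulocyte markers 0 had a higher mean in the Hmga2-labelled libraries, with sums of 2980 to 4850 CPM, against 4380 to 9300 CPM in the vector libraries. Among them DESeq2, though not edgeR, called Ms4a3, Ltf and Ngp lower in the Hmga2-labelled libraries (adjusted p = 0.00752, 0.0199 and 0.0135 with DESeq2). Of the 8 erythroid markers 2 had a higher mean in the Hmga2-labelled libraries, with sums of 519 to 1060 CPM, against 823 to 1210 CPM in the vector libraries, and DESeq2, though not edgeR, called Klf1 and Rhd lower. Y-linked genes summed to 192, 5.27 and 127 CPM in the Hmga2-labelled libraries, against 6.62, 21.5 and 5.44 CPM in the vector libraries, so both high libraries were in 1 group. The part of these differences in the results below was not tested, apart from refits for the Y-linked level and for immunoglobulin reads. The latter refits either allowed for the libraries rich in those reads or dropped the immunoglobulin genes. In bulk samples such as these, a change in the share of a cell type and a change of RNA per cell cannot be told apart.

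None of the 10 imprinted growth regulators passed the test between the 2 groups. The quasi-likelihood test of edgeR, with Benjamini-Hochberg adjustment over all 16739 genes tested, called 0 of the 5 members that passed the count filter, beside 0% of all genes. At an unadjusted p under 0.05 it also held 0 of the 5, beside 5.59% of all genes, and DESeq2 called 0 of the 5, beside 0.424% of all genes. For each of the 10 members the values of the 2 groups overlapped, while 11.2% of all genes tested had groups that did not, 5.87% being lower and 5.29% higher in the Hmga2-labelled libraries. The log2 fold change was negative for 3 of the 5 tested members and for 49.6% of all genes. Its median was -0.27 over the 5 and 0.00 over all genes. What the data do show is a spread of Grb10 and Igf2r over the 6 libraries that was wider than in most genes of at least 5 CPM. The other members were under 5 CPM and were not set beside those genes. Among them Ndn ran from 6 to 79 reads, or 0.251 to 2.3 CPM, which is wider than counting error alone. For the members with fewer reads than Ndn, spread was not tested against counting error. The values of all 10 are given below by the role of the gene.

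**Figure D1:**
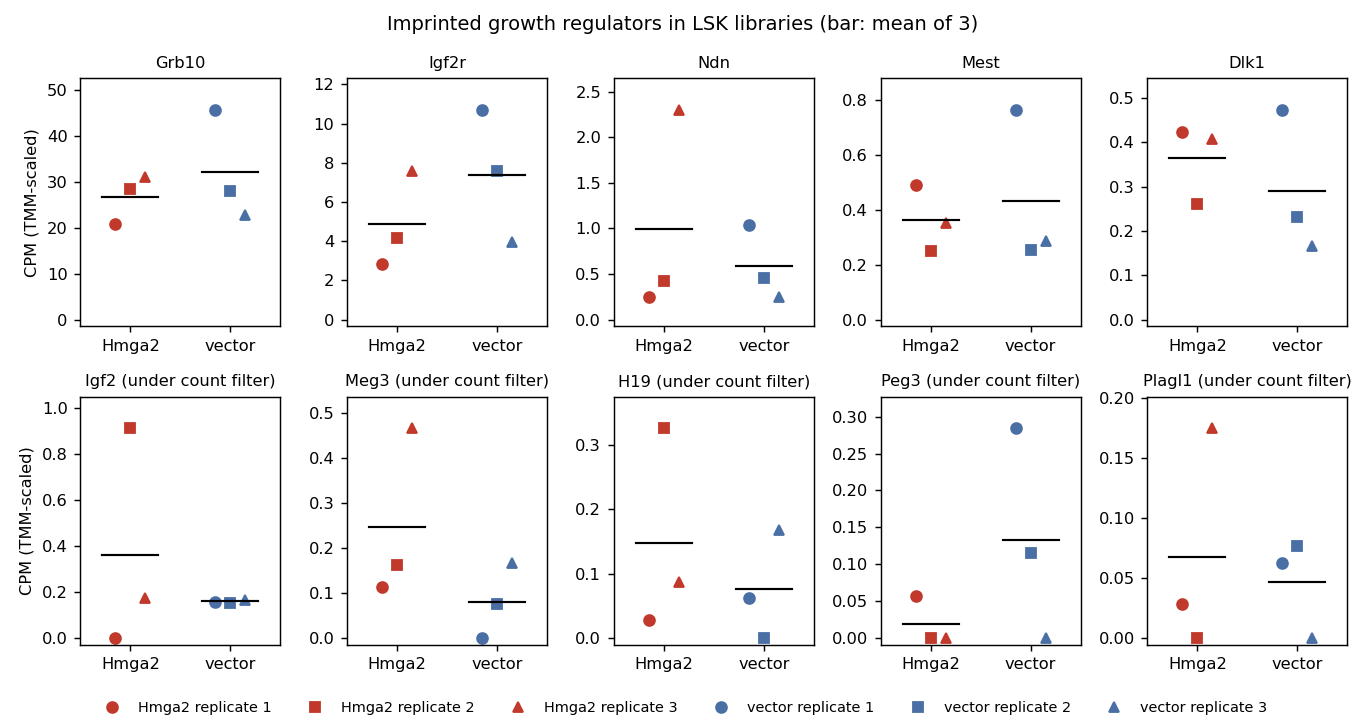
TMM-scaled CPM of the 10 genes in each library, the 3 Hmga2-labelled libraries on the left and the 3 vector libraries on the right of each panel, with a bar at the mean of 3 and a separate linear axis per gene. The groups overlap in every panel, vector replicate 1 is the highest library for Grb10, Igf2r, Mest and Dlk1, and Hmga2 replicate 3 is the highest for Ndn, at 2.3 CPM.

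Grb10, which encodes an adaptor that binds the insulin and IGF1 receptors and dampens their signal, was the most abundant of the 10. The gene (chr11:11930508-12038683 on mm10, minus strand) is maternally expressed in most mouse tissues. It was at 20.8, 28.4 and 31.1 CPM in the Hmga2-labelled libraries, against 45.7, 28 and 22.7 CPM in the vector libraries, with 542 to 1449 reads per library. Vector replicate 1 lay above the 5 other libraries, which ran into each other across the groups. The mean was 26.7 ± 5.33 CPM in the Hmga2-labelled libraries and 32.1 ± 12.0 CPM in the vector libraries (SD, n = 3 each). The log2 fold change was -0.27 (SE 0.27, adjusted p = 0.9, edgeR), and its 95% interval of -0.91 to 0.38 reached from a 0.531-fold to a 1.3-fold level. Without vector replicate 1 the log2 fold change was 0.08.

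Igf2r, the mannose 6-phosphate receptor that takes IGF2 to the lysosome and so removes it, came next (chr17:12682406-12769664, minus strand, maternally expressed). Igf2r was at 2.83, 4.16 and 7.6 CPM in the Hmga2-labelled libraries, against 10.7, 7.57 and 3.94 CPM in the vector libraries. The lowest library was Hmga2 replicate 1 and the highest vector replicate 1, but Hmga2 replicate 3 stood as high as vector replicate 2. The log2 fold change was -0.61 (SE 0.47, 95% interval -1.71 to 0.49, adjusted p = 0.865, edgeR), and an exact two-sided permutation test gave p = 0.5, where 3 libraries against 3 allow no p below 0.1. It stayed negative in all 14 alternative settings, from -1.09 without Hmga2 replicate 3 to -0.24 without vector replicate 1.

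The promoters of the 3 most abundant members, Grb10, Igf2r and Ndn, are printed as the genes with the most reads. The windows span 250 bases before to 50 after a transcript start (RefSeq, GRCm38.p6, the assembly of mm10), run 5′ to 3′ along the gene's strand, and have each CpG, the dinucleotide that carries imprinting methylation, in capitals.
Grb10, upstream start, chr11:12037371-12037670, minus strand: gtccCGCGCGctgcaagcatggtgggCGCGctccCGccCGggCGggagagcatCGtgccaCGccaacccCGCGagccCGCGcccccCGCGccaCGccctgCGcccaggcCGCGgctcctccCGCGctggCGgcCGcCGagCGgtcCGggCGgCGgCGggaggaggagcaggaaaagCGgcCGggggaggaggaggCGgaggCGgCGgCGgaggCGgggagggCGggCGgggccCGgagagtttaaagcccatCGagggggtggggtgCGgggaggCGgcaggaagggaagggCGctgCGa
Grb10, downstream start, chr11:12027922-12028221, minus strand: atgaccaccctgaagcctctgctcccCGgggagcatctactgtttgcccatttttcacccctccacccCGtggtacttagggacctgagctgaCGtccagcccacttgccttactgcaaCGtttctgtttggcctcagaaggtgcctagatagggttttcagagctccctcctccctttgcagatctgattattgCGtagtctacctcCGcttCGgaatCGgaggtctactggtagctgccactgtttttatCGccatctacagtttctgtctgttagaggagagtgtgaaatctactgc
Igf2r, chr17:12769657-12769956, minus strand: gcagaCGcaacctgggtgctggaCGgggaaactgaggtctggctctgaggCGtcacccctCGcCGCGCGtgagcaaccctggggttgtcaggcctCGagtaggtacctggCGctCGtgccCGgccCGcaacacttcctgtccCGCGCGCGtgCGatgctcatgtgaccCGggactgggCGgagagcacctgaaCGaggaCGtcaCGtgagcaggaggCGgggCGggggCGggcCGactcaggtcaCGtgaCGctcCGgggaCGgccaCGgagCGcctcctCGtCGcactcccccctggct
Ndn, chr7:62348027-62348326, plus strand: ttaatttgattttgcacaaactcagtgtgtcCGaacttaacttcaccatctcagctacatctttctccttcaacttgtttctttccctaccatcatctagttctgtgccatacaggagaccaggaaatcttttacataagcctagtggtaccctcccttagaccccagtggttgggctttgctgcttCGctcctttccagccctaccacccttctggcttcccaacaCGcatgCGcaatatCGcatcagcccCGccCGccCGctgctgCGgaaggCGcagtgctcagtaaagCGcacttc
The upstream Grb10 window held 45 CpGs, and 1.93% of the 32817 promoter windows of that length held as many. The Igf2r window held 34, a count reached by 7.73% of windows, while the Ndn window held 11 and the downstream Grb10 window 9, near the median of 7. The 9 members listed in the promoter table had 16 windows between them, and H19 was not listed. A match to the published PLAG1 consensus, searched on both strands, lay in 2 of the 16, the upstream Grb10 window and the Plagl1 window, where 9.46% of all windows held one. The count tables hold 1 value per gene, so the 2 Grb10 starts were not told apart.

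Igf2 and H19, the neighbouring genes of chromosome 7 that share a set of enhancers, were close to the detection floor. Igf2 encodes the fetal growth factor that binds Igf1r and Igf2r (chr7:142650766-142666816, minus strand, paternally expressed), and H19 is a maternally expressed non-coding RNA (chr7:142575529-142578143, minus strand) known in mouse to help keep long-term stem cells quiescent. Igf2 had 0, 28 and 6 reads in the Hmga2-labelled libraries, against 5, 4 and 4 reads in the vector libraries. H19 had 1, 10 and 3 reads in the Hmga2-labelled libraries, against 2, 0 and 4 reads in the vector libraries. Hmga2 replicate 2 was the highest library for both genes, and the other values of the groups overlapped. In CPM, Igf2 was at 0, 0.911 and 0.175 in the Hmga2-labelled libraries and at 0.158, 0.154 and 0.167 in the vector libraries, where the 3 vector libraries were nearly equal. Neither gene passed the count filter, and exact two-sided permutation tests gave p = 0.7 for Igf2 and p = 0.6 for H19. Marrow stroma markers had their highest sum in the same library, at 66.9, 81.5 and 57.5 CPM in the Hmga2-labelled libraries, against 58.8, 72.4 and 77.7 CPM in the vector libraries, and 6 of the 10 markers had a higher mean in the Hmga2-labelled libraries. Most of that sum was Pdgfrb, at 59.1, 68.6 and 47 CPM in the Hmga2-labelled libraries and 41.2, 60.7 and 64.2 CPM in the vector libraries. Of the defining stroma genes, Lum was at 0 CPM in 4 libraries and Pdgfra at no more than 0.117 CPM in any. Col1a1 and Col3a1, at 1.92 and 1.33 CPM, were highest in Hmga2 replicate 2, the library highest for Igf2 and H19. The collagen gene Col1a2 was instead highest in vector replicate 3, at 4.15 CPM, with 2.54 CPM in Hmga2 replicate 2. Cxcl12 was at 2.8, 2.54 and 4.31 CPM in the Hmga2-labelled libraries, against 0.221, 0.999 and 0.586 CPM in the vector libraries (adjusted p = 0.00884 with DESeq2 and 0.855 with edgeR). Sparc went the other way, with 1.13, 2.7 and 2.21 CPM in the Hmga2-labelled libraries, against 13.9, 7.46 and 5.69 CPM in the vector libraries (adjusted p = 0.000757 with DESeq2 and 0.855 with edgeR). The part of these markers in the Igf2 and H19 reads was not tested.

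Dlk1 and Meg3, the paternally and the maternally expressed gene of one domain on chromosome 12, were also low. Dlk1 encodes a transmembrane protein related to Notch ligands (chr12:109452823-109463336, plus strand). It had 15, 8 and 14 reads, or 0.424, 0.26 and 0.408 CPM, in the Hmga2-labelled libraries, against 15, 6 and 4 reads, or 0.473, 0.231 and 0.167 CPM, in the vector libraries. The highest library and the 2 lowest were all vector libraries. The log2 fold change was 0.30 (SE 0.51, 95% interval -0.91 to 1.51, adjusted p = 0.947, edgeR), and 0.01 with a term for the Y-linked level. Meg3, a long non-coding RNA of the same domain (chr12:109541001-109571726, plus strand), had 4, 5 and 16 reads in the Hmga2-labelled libraries, against 0, 2 and 4 reads in the vector libraries. The groups met at 4 reads, and in CPM Hmga2 replicate 1 (0.113) lay below vector replicate 3 (0.167), so they overlapped (exact two-sided permutation p = 0.3). With 25 reads in 3 Hmga2-labelled libraries and 6 in 3 vector libraries, Meg3 missed the count filter.

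Ndn had the widest spread of the 5 tested members. It encodes necdin, a protein of the MAGE family that binds p53 and E2F1 and is known to restrain the cycling of stem cells (chr7:62346569-62350262, plus strand, paternally expressed). Ndn was at 0.254, 0.423 and 2.3 CPM in the Hmga2-labelled libraries, against 1.04, 0.461 and 0.251 CPM in the vector libraries, from 9, 13 and 79 reads and from 33, 12 and 6 reads. Hmga2 replicate 3 was the highest library and vector replicate 1 the next, while the 4 others lay close together. The log2 fold change was 0.74 (SE 0.89, 95% interval -1.36 to 2.84, adjusted p = 0.918, edgeR), it was -0.81 without Hmga2 replicate 3, and it was 0.05 with a term for the Y-linked level.

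The other 2 nuclear factors were at the floor, and Mest was little above it. Plagl1, a zinc-finger factor that can arrest the cell cycle and activate other imprinted genes (chr10:13060504-13131694, plus strand, paternally expressed), had 1, 0 and 6 reads in the Hmga2-labelled libraries, against 2, 2 and 0 reads in the vector libraries. Peg3, a zinc-finger gene (chr7:6703892-6730431, minus strand, paternally expressed), had 2, 0 and 0 reads in the Hmga2-labelled libraries, against 9, 3 and 0 reads in the vector libraries. For neither gene was a difference detectable at this depth (exact two-sided permutation p = 1 for Plagl1 and p = 0.4 for Peg3). Mest, which encodes a protein with an alpha/beta hydrolase fold (chr6:30723547-30748465, plus strand, paternally expressed), was at 0.49, 0.249 and 0.351 CPM in the Hmga2-labelled libraries, against 0.764, 0.253 and 0.285 CPM in the vector libraries. Vector replicate 1 was again the highest library, and the rest overlapped. The log2 fold change was -0.29 (SE 0.53, 95% interval -1.55 to 0.97, adjusted p = 0.949, edgeR), and it was 0.37 without vector replicate 1. Exons of Mest and of Copg2 share 912 bases on opposite strands, and Copg2 had 1922.2 to 3157.7 estimated counts per library where Mest had 6.6 to 24.3, so the Mest values, which were not whole numbers, may hold reads of Copg2.

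The order of the 10 genes was read per kilobase of annotated exon, since the genes differ in length. The length was the union of all annotated exons of a gene, which can exceed that of any single transcript. Grb10 averaged 2.94 ± 0.588 CPM per kilobase in the Hmga2-labelled libraries and 3.54 ± 1.33 in the vector libraries (SD, n = 3 each). Igf2r averaged 0.522 ± 0.264 CPM per kilobase in the Hmga2-labelled libraries and 0.795 ± 0.363 in the vector libraries. Grb10 was above Igf2r in 6 of 6 libraries, and Igf2r was above Ndn in 6 of 6, although the ranges of Igf2r and Ndn over the libraries overlapped. Ndn, with a mean over the 6 libraries of 0.213 CPM per kilobase, was above Mest, at 0.101, in 4 of 6, and the ranges of the pair overlapped. Mest was above Dlk1 in 6 of 6 libraries, at 0.0578 CPM per kilobase for Dlk1, although the ranges again overlapped. Igf2 at 0.0456 and H19 at 0.0454 CPM per kilobase were equal within their spread. Meg3, Plagl1 and Peg3 formed the bottom, at 0.00908, 0.00732 and 0.0057 CPM per kilobase, and did not differ beyond their spread. The place of Meg3 depends on the length used: it had 31 reads over 18089 exon bases, where H19 had 20 over 2460.

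**Figure D2:**
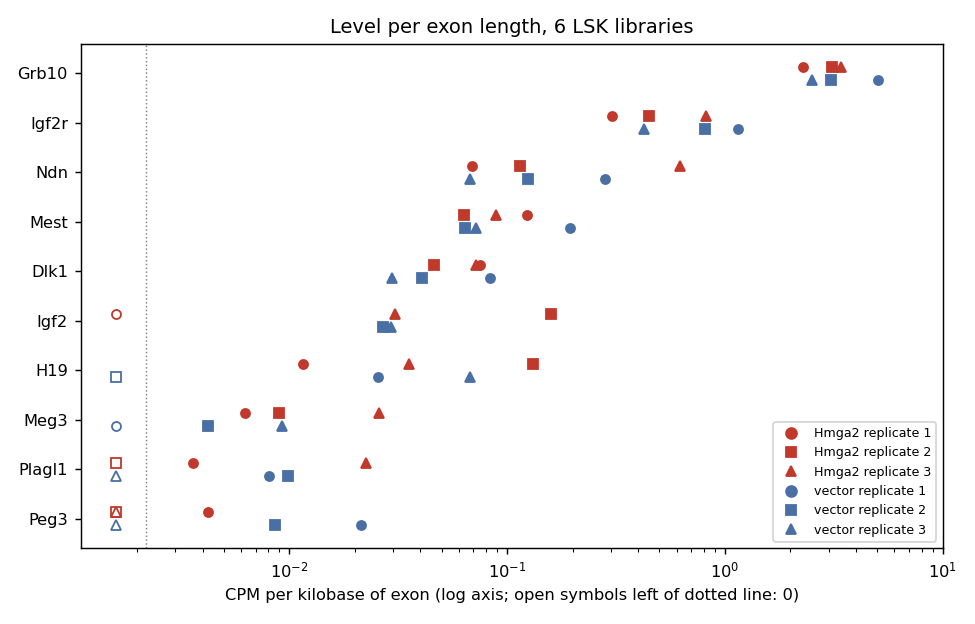
TMM-scaled CPM per kilobase of annotated exon on a log axis, 1 symbol per library, with the Hmga2-labelled libraries above the vector libraries in each row and open symbols for libraries at 0. Grb10, at a mean of 3.24, lies above all values of the other genes, and the ranges of neighbours from Igf2r (mean 0.659) downwards overlap.

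Grb10 and Igf2r varied between libraries more than most genes of at least 5 CPM, and vector replicate 1 was at the high end for 4 members. Among 11587 genes of at least 5 CPM the highest library was typically 1.34 times the lowest (median). For Grb10 this ratio was 2.19, and 6.95% of those genes were as wide. For Igf2r it was 3.8, and 2.38% were as wide. The genes were not matched by level, and Igf2r, at a mean of 6.14 CPM, lay near the lower bound of 5 CPM. Vector replicate 1 was the highest of the 6 libraries for 4 of the 5 tested members, where it was the highest for 15.1% of all genes tested, and for 11 of the 28 other imprinted genes tested. It was above 1.5 times the median library for 4 of the 5 members and for 7.87% of all genes. This library was picked with the values of the members in view, so these shares are no test. For Dlk1 it held 15 reads, as did Hmga2 replicate 1. Of the 9 LSK markers it was the highest for 4, Slamf1, Procr, Mecom and Hlf, all known from long-term stem cells. Kit, Cd34, Flt3, Meis1 and Ly6a were highest in other libraries. Meis1 was at 173 CPM in Hmga2 replicate 2, against 134 CPM in vector replicate 1. Ly6a was at 59.1 CPM in vector replicate 3, against 51.5 CPM in vector replicate 1. Mecom was at 22.2, 21.8 and 31.8 CPM in the Hmga2-labelled libraries, against 37.6, 8 and 13.9 CPM in the vector libraries. Procr was at 9.78, 14 and 12.8 CPM in the Hmga2-labelled libraries, against 20.9, 7.11 and 8.83 CPM in the vector libraries. Vector replicate 1 also had the highest sum of the B and plasma cell markers, at 13600 CPM. The granulocyte and erythroid sums were highest in vector replicate 2, at 9300 and 1210 CPM. The part of all these markers in the levels of the imprinted genes was not tested, and they were singled out after their values were seen.

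**Figure D3:**
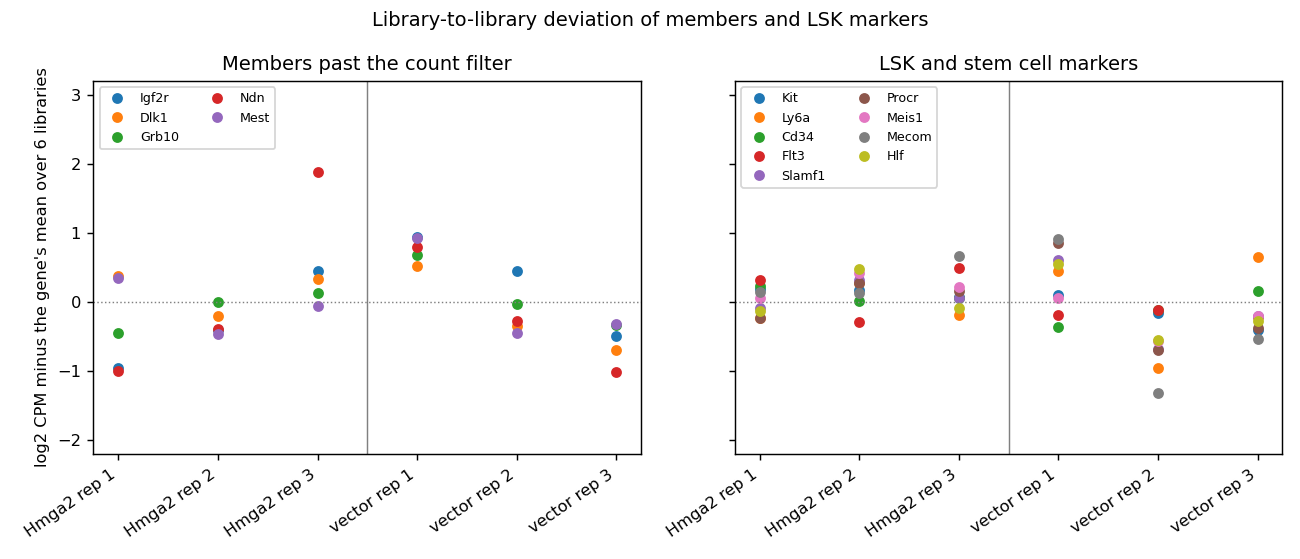
Log2 CPM of each gene minus its own mean over the 6 libraries, for the 5 members past the count filter (left panel) and the 9 LSK markers (right panel), by library. In vector replicate 1 the 5 members lie between 0.52 and 0.95, and in vector replicate 3 between -1.01 and -0.31.

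Over the 6 libraries Igf2r and Grb10 went up and down together most closely of the 10 pairs of tested members. Their log2 CPM gave a Pearson r of 0.89 (exact permutation p = 0.00833, 0.0833 adjusted over 10 pairs) and a Spearman rho of 0.94 (exact permutation p = 0.0167, 0.167 adjusted), so the relation did not pass the adjustment. None of the 10 pairs did, Igf2r with Ndn (rho = 0.89, exact permutation p = 0.0333, 0.167 adjusted) and Grb10 with Ndn (rho = 0.83, exact permutation p = 0.0583, 0.194 adjusted) included. Without the 2 libraries farthest from the Igf2r median r was 0.7. Dlk1 and Mest gave r = 0.8 (exact permutation p = 0.0389, 0.194 adjusted) and rho = 0.77 (exact permutation p = 0.103, 0.257 adjusted), with r = 0.91 without the 2 libraries farthest from the Dlk1 median. All pairs share the same libraries and both groups, and 6 libraries are too few for a value within each group. By likeness of log2 CPM over the 6 libraries among expressed named genes, Grb10 was closest to Fbrsl1 (r = 0.998) and Fam213a (r = 0.994), Igf2r to Jund (r = 0.995) and Actn4 (r = 0.977), and Ndn to Pitpnm1 (r = 0.994) and Clu (r = 0.99). These are the top of 10198 candidates for Grb10 and Igf2r and of 10199 for Ndn, and carry no test. Clu, the clusterin gene, was at 4.95, 9.37 and 34.9 CPM in the Hmga2-labelled libraries, against 18.1, 7.34 and 5.48 CPM in the vector libraries, so that the same 2 libraries were the highest as for Ndn.

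Of 53 other imprinted genes, 42 had at least 1 read and 28 passed the count filter. Among the 28, edgeR called 0, beside 0% of all genes, and DESeq2 called 0, beside 0.424% of all genes. Their log2 fold changes were positive for 15 and negative for 13, with a median of 0.06. For 5 of the 28 the groups were fully separate, where 11.2% of all genes were: Nap1l5, Tssc4 and Inpp5f were lower in the Hmga2-labelled libraries, and Copg2 and Impact higher. Tssc4 was at 48.4 ± 2.71 CPM in the Hmga2-labelled libraries and 55.1 ± 3.55 CPM in the vector libraries (SD, n = 3 each). Slc22a3, a cation transporter gene beside Igf2r, was at 203, 237 and 158 CPM in the Hmga2-labelled libraries, against 114, 123 and 195 CPM in the vector libraries, with a log2 fold change of 0.47 (adjusted p = 0.855, edgeR). Cdkn1c, which encodes the cyclin-dependent kinase inhibitor p57 of quiescent stem cells and was singled out after its values were seen, had 49, 89.8 and 133 counts in the Hmga2-labelled libraries, against 205, 30 and 39 counts in the vector libraries. The highest Cdkn1c library was thus also vector replicate 1, and its log2 fold change was -0.18.

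**Figure D4:**
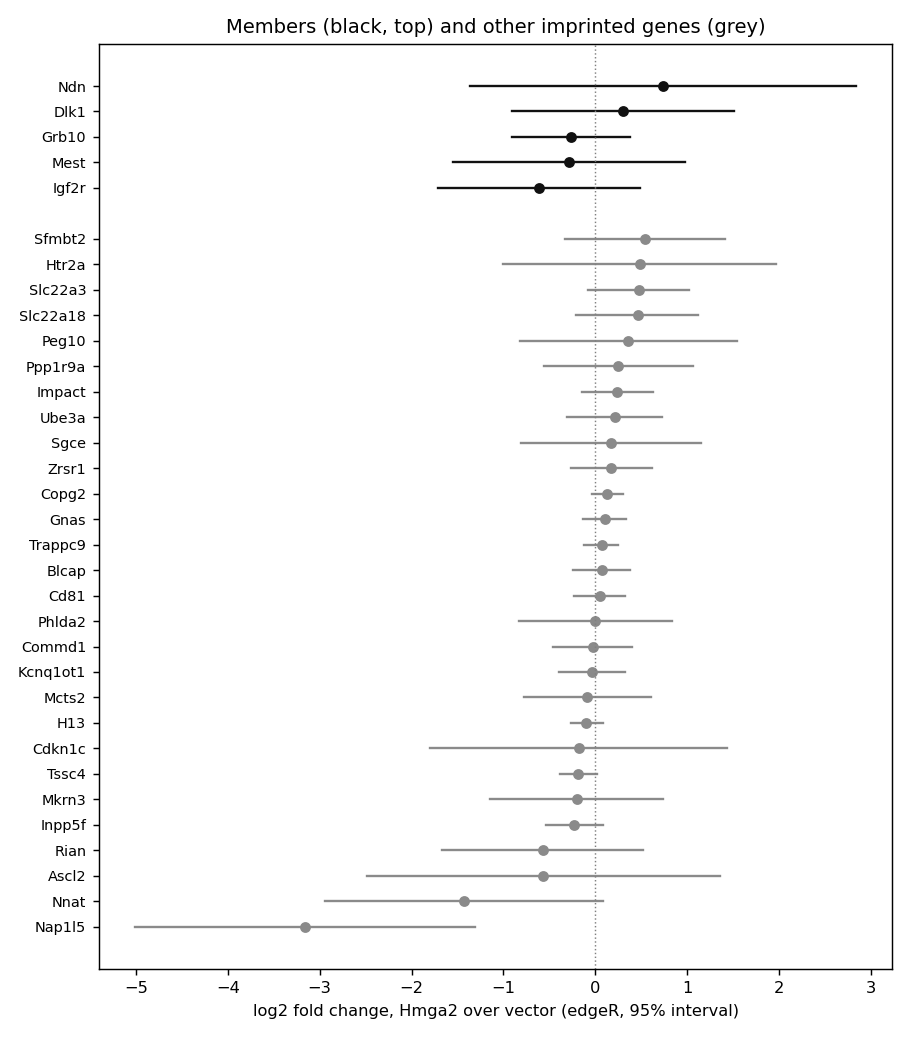
Log2 fold change of the Hmga2-labelled libraries over the vector libraries with its 95% interval (edgeR), for the 5 tested members in black and 28 other imprinted genes in grey, each block sorted. All 5 black intervals cross 0, and of the grey ones only that of Nap1l5, at -3.16, does not.

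The other imprinted gene of smallest p was Nap1l5, and its reads were fewest in the Hmga2-labelled libraries. Nap1l5, a nucleosome assembly protein gene, had 0, 3 and 3 reads in the Hmga2-labelled libraries, against 26, 13 and 9 reads in the vector libraries, with a log2 fold change of -3.16 (SE 0.78, adjusted p = 0.855, edgeR), an unadjusted p of 0.00487 in the edgeR fit and p = 0.1 in the exact permutation test. Nnat, encoding neuronatin, had 18, 15 and 9 reads in the Hmga2-labelled libraries, against 41, 47 and 7 reads in the vector libraries (log2 fold change -1.43, adjusted p = 0.855, edgeR). Snrpn, a splicing protein gene that shares reads with Snurf and was singled out after its values were seen, had 0, 5.6 and 4.5 counts in the Hmga2-labelled libraries, against 24.8, 36 and 3.3 counts in the vector libraries. Of the 12 Peg3 reads in vector libraries, 9 were in replicate 1 and 3 in replicate 2. The 8 markers of glia, myelin and neurons summed to 122, 144 and 111 CPM in the Hmga2-labelled libraries, against 325, 378 and 119 CPM in the vector libraries, and 0 of the 8 had a higher mean in the Hmga2-labelled libraries. Mbp, which blood cells also express, made up most of the sum. Gfap, the astrocyte filament gene, was at 1.24, 1.56 and 0.728 CPM in the Hmga2-labelled libraries, against 11.6, 9.57 and 3.77 CPM in the vector libraries (adjusted p = 7.49e-06 with DESeq2 and 0.855 with edgeR). Mobp, another gene of myelin, had 0.876, 4.68 and 0.758 CPM in the Hmga2-labelled libraries, against 38.7, 46.7 and 4.98 CPM in the vector libraries. The myelin gene Mog was at 0 CPM in 4 libraries. Other imprinted genes expressed in neurons did not share this order: Ndn was highest in Hmga2 replicate 3, and Mkrn3 had 24, 38 and 29 reads in the Hmga2-labelled libraries, against 46, 28 and 15 reads in the vector libraries. The part of these transcripts in the Peg3, Nnat, Nap1l5 and Snrpn counts was not tested.

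**Figure D5:**
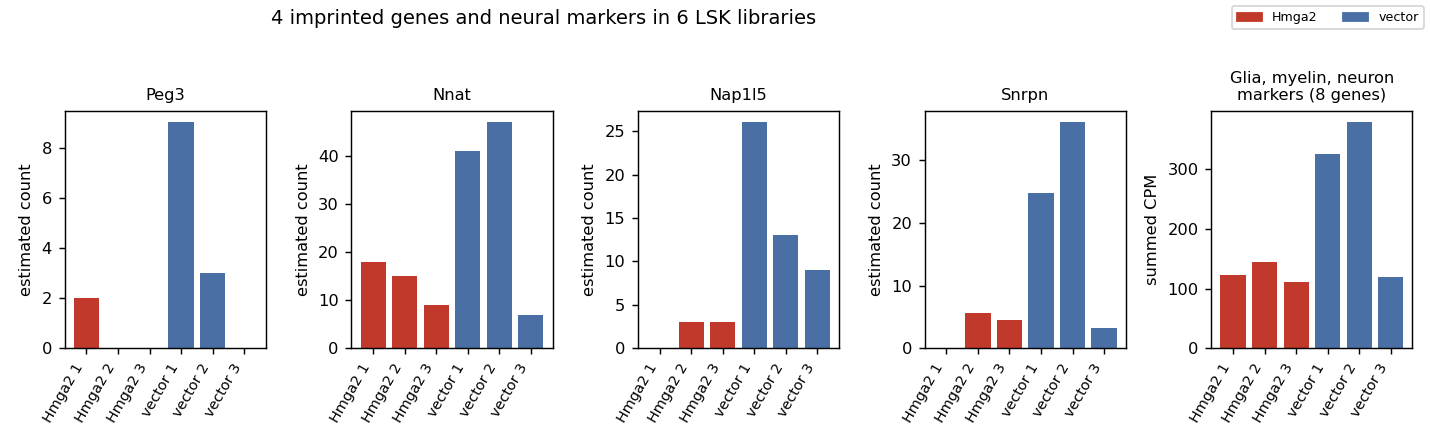
Estimated counts of Peg3, Nnat, Nap1l5 and Snrpn and the summed CPM of 8 glia, myelin and neuron markers, 1 bar per library, with the Hmga2-labelled libraries on the left. The genes were put together with their values in view, so that vector replicates 1 and 2 are highest in each gene panel follows in part from that choice.

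The partners of the members in IGF signalling, the Plag family and the setting or upkeep of imprints also gave no call. Of 20 genes of IGF ligands, receptors, binding proteins and adaptors, 10 were tested. Of these edgeR called 0, beside 0% of all genes, and DESeq2 called 0, beside 0.424% of all genes. The log2 fold change was positive for 6 of the 10, with a median of 0.24. Igf1r, the receptor through which IGF2 signals, was at 47.7, 32.3 and 32.0 CPM in the Hmga2-labelled libraries, against 31.4, 29.5 and 26.3 CPM in the vector libraries. The 3 Hmga2-labelled libraries were thus all above the vector libraries, but 2 of them only just. Igf1r was the 1 gene of the 10 tested whose groups did not overlap, beside 11.2% of all genes tested. Its log2 fold change of 0.36 (SE 0.17) did not pass (adjusted p = 0.855, edgeR). The values of Insr, Pik3r1 and Igfbp5 overlapped between the groups, with log2 fold changes of 0.25, 0.24 and 0.97, and that of Igfbp5 was 0.22 without Hmga2 replicate 2. Plag1 was at 0.424, 0.65 and 1.54 CPM in the Hmga2-labelled libraries, against 1.99, 0.269 and 0.377 CPM in the vector libraries, with vector replicate 1 and Hmga2 replicate 3 above the rest, as for Ndn. Its log2 fold change was -0.03 (SE 0.82), and 1.43 without vector replicate 1 (adjusted p = 0.474, edgeR). Plagl2 was at 71 ± 8.21 CPM in the Hmga2-labelled libraries and 68.4 ± 6.53 CPM in the vector libraries, and Hmga1 at 294 ± 44.2 and 326 ± 18.8 CPM in the same order of groups (SD, n = 3 each).

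Of 15 factors listed here for setting or maintaining imprints, 13 were tested. Among the 13, edgeR called 0, beside 0% of all genes, and DESeq2 called 0, beside 0.424% of all genes. Their log2 fold change was above 0 for 11 of the 13, at a median of 0.17, where it was above 0 for 8429 of all 16739 genes. Dnmt1, the maintenance DNA methyltransferase, was at 594, 554 and 597 CPM in the Hmga2-labelled libraries, against 514, 511 and 536 CPM in the vector libraries, and was the 1 gene of the 13 whose groups did not overlap, beside 11.2% of all genes. Its log2 fold change was 0.16 (SE 0.08, adjusted p = 0.855, edgeR). Dnmt3a, Ctcf and Arid4b had log2 fold changes of 0.17, 0.16 and 0.34, with overlapping groups.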

How the data were processed

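RNA from 6 LSK libraries was sequenced. The authors deposited 1 table per library of estimated counts (expected counts) by gene symbol, used here as deposited; how they were estimated is not stated. The unit was judged from the values: none was negative, totals differed, and 74% to 77.9% of values above 0 were whole within 0.01. Partek 3.0, Bowtie2 and the build mm10 are named, per the submitters' processing notes. The counter, its annotation and its use of strand are not stated, so reads of genes that overlap on opposite strands cannot be told apart.

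The rounded counts went into edgeR 4.0.16 (R 4.3.3; filterByExpr, TMM, quasi-likelihood F test on group, Benjamini-Hochberg adjustment over 16739 genes, threshold 0.05), and standard errors came from the F statistic. DESeq2 1.42.0 was the other tool. Both were tested on simulated counts. Log2 CPM used a prior count of 2. No 2 replicates agreed within sampling noise (24.8 to 57 chi-square units per degree of freedom). P-values measure the spread between these libraries. Positions and exon lengths come from GENCODE M21, and promoter windows from RefSeq.

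The members, gene lists, tests and alternatives were chosen with earlier results of these data known. Named were all members, Hmga2, Plag1, Igf1r, up to 4 genes of smallest p per list, and the 2 genes most alike to each of the 3 most abundant members, of at least 5 CPM. The rule does not cover Inpp5f, Copg2, Impact or single cell type markers, which were picked with their values in view. An LSK marker on the original list is not reported here.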

Additional observations from a re-analysis of the deposited data

How the results depend on the processing

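Across 14 alternative settings, calls were recounted for members, for other imprinted genes, and for genes of Igf, Plag and the setting or upkeep of imprints. They stayed at 0 in 42 of 42 recounts. With edgeR the number of genes called over the whole table was 0 with the count filter and 1 with no filter on low counts (no member). It was 0 with any single library left out. DESeq2, with the same count filter, called 71 (no member). Of 294 refitted fold changes of 21 genes, 279 kept their direction without a call and 15, of 6 genes, changed sign, none of them called. Leaving out 1 library at a time, Grb10 ranged from -0.46 to 0.08, Mest from -0.54 to 0.37, Ndn from -0.81 to 1.46, Plag1 from -0.73 to 1.43, Plagl2 from -0.02 to 0.14 and Hmga2 from -0.49 to 0.06 (log2 fold change). With a term for Y-linked genes Hmga2 was 0.12, Plag1 0.01, Plagl2 -0.09, Ndn 0.05, Dlk1 0.01 and Igfbp5 1.42, and allowing for the 3 libraries rich in immunoglobulin reads Plag1 was 0.36 and Plagl2 0.00. With the replicate number as a block Plag1 was 0.36 and 0 genes were called. The numbers share no stated source: deviations of same-numbered libraries gave r = -0.21, -0.5 and -0.26, and 0 of 6 libraries resembled their own number best. Apart from those named, the causes of these shifts were not tested. With 11 to 62 reads over 6 libraries, H19, Igf2, Meg3, Peg3, Plagl1 and Dlk1 are limited by depth.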

Other observations

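Other non-coding RNAs of the members' imprinted domains were read out as well, and were singled out after their values were seen. Airn, the antisense RNA that starts inside Igf2r, had 12, 4 and 5 reads in the Hmga2-labelled libraries, against 10, 7 and 6 reads in the vector libraries, while Igf2r itself had 94 to 341. Rian, of the domain of Dlk1 and Meg3, had 18, 21 and 22 reads in the Hmga2-labelled libraries, against 22, 40 and 12 reads in the vector libraries. The rows of the microRNAs Mir675, Mir335, Mir483 and Mir770, which lie in or beside H19, Mest, Igf2 and Meg3, held 0 reads in all libraries.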
